A study of Mus musculus with 35 samples.

Results

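Radiated mouse skin of week 3 was compared here with radiated skin of week 2, the interval of interest for the onset of the visible skin reaction, over all genes measured. The comparison rests on 8 of the 35 libraries of the series, chosen by their labels: 4 radiated skin samples of week 3 and 4 of week 2, each from a different mouse. All mice were female C57BL/6J, a common inbred strain, 10 weeks old when the left flank received 25 Gy at 3.6 Gy per min over 420 s. The treated skin was shaved afterwards, and a biopsy of the radiated site was kept in RNAlater before RNA was extracted with an RNeasy kit. The series text divides 19 mice into 5 groups, which are a sham group without radiation (3 libraries) and groups sampled at week 1, 2, 3 or 4. Every weekly group gave 4 radiated and 4 control skin libraries. The labels do not say where on the body control skin was taken, at what hour mice were sampled, or how severe the reaction was in each mouse. With 35 libraries from 19 mice, libraries of radiated and control skin that share a week and a number are treated as taken from 1 mouse. No batch is named in the labels, and what separates the mice of one group beyond being separate samples is not described.

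Ionising radiation breaks DNA, and in skin it first strikes the cells that divide, which are the basal keratinocytes and the hair follicle matrix. When basal cells are not replaced, the epidermis thins and can open, and stressed keratinocytes release cytokines and chemokines that draw neutrophils and monocytes from the blood. The chemokines Cxcl1, Cxcl2, Cxcl3 and Cxcl5 bind the receptor Cxcr2 on neutrophils. Fibroblasts, vessels, fat and the thin skeletal muscle under mouse skin lie in the same field of radiation.

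Between week 2 and week 3 the radiated skin gained transcripts of neutrophil receptors, neutrophil-attracting chemokines, some matrix-degrading enzymes and some cell division genes. It lost transcripts of skeletal muscle, fat and the circadian clock, and of some genes of the upper epidermis. The muscle, fat and clock lists were lower in control skin too, with median log2 fold changes of -0.46, -0.49 and -0.86. In the test of the difference between both skins no member of these lists passed, and 1, 1 and 4 did with the mouse in the model. Of 17676 genes tested in radiated skin, 1487 (8.41%) differed between the weeks at an adjusted p under 0.05 (edgeR quasi-likelihood F test, Benjamini-Hochberg adjustment). Week 3 was higher for 636 of them (3.6%) and lower for 851 (4.81%). Hereafter "rose" and "fell" are used of genes that passed this test, and levels are CPM, the usual read share scaled with TMM factors. The called genes were at least 4-fold higher in 181 cases and at least 4-fold lower in 136. The median log2 fold change of all tested genes was 0.06, with quartiles of -0.33 and 0.45. Scaled to total counts in place of TMM, the median moved to 0.25 and the split turned to 1229 higher and 502 lower, so that 71% of called genes were higher against 42.8% under TMM. Directions are relative to the TMM scaling, and no called gene named below changed sign under the other. In 1397 of the called genes the 4 values of one week all lay above the 4 of the other. Over all tested genes, such separation occurred upward in 7.88% and downward in 9.78%. In bulk tissue, fewer cells of a type and less RNA per cell cannot be told apart.

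**Figure D1:**
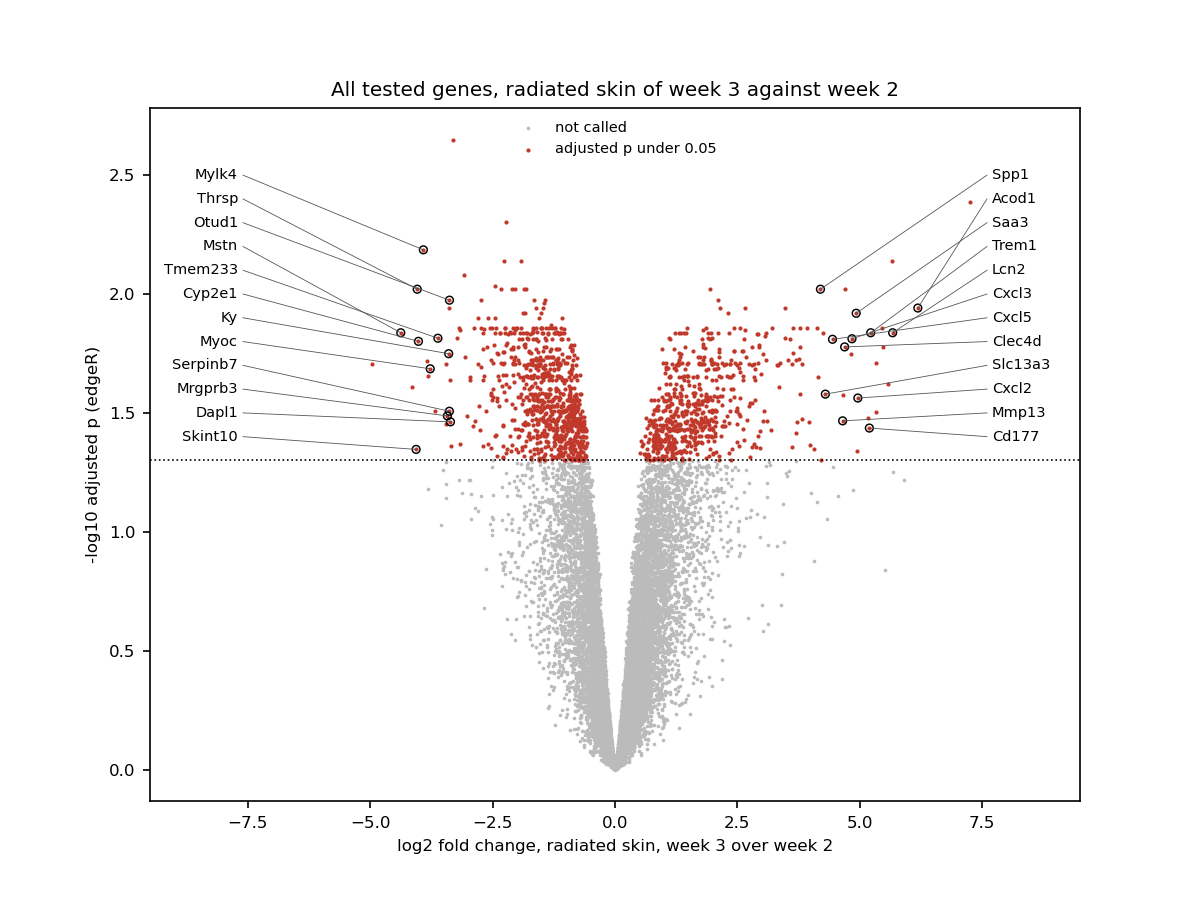
Each point is 1 of the 17676 tested genes, with the log2 fold change of radiated skin (week 3 over week 2) on the x axis and the -log10 adjusted p of edgeR on the y axis. The dotted line marks an adjusted p of 0.05, and the labelled circles are the 12 largest increases and the 12 largest decreases among called genes that average 5 CPM or more and do not overlap. The increases reach 6.19 for Acod1 and the decreases -4.38 for Mstn.

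The 8 libraries held between 18450667 and 25942733 estimated counts, and the 10 most abundant genes took between 6.36% and 10.4% of them. Spearman correlations over genes were 0.959 to 0.977 within week 2, 0.948 to 0.975 within week 3 and 0.909 to 0.965 between the weeks. The highest value between weeks, 0.965, joined replicate 4 of week 2 with replicate 4 of week 3. Replicate 4 of week 2 already carried high wound keratins, replicate 1 of week 2 stood apart in macrophage genes, and replicate 4 of week 3 alone was high in hair follicle keratins. The total of called genes depended on single libraries. It was 134 without replicate 2 of week 2, 235 without replicate 3 of week 2, 462, 468 and 544 without replicates 1, 2 and 3 of week 3, and 1833 without replicate 4 of week 3. Of 118 called genes named in the text, 32 were still called without replicate 2 of week 2, 52 without replicate 3 of week 2, and between 69 and 112 without any one of the others. None of them changed sign in those fits. Genes said below to have "held throughout" were called under every alternative scaling, filter and tool that tested them and with any one library left out; Fpr2 and S100b were not tested under the stricter filter.

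Among the 12 genes with the largest increases, 3 encode chemokines of the Cxcr2 group, and the promoters of Cxcl2 and Cxcl3 are shown because both hold the same recognition sequence of NF-kB, a transcription factor of inflammatory gene induction. Cxcl1 lies in the same cluster on chromosome 5 and was added after its values were seen. The sequences are the 250 bases before the transcription start from RefSeq (GRCm38.p6, plus strand, 5′ to 3′), with the NF-kB motif in capitals.

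Cxcl2, chr5:90903649-90903898: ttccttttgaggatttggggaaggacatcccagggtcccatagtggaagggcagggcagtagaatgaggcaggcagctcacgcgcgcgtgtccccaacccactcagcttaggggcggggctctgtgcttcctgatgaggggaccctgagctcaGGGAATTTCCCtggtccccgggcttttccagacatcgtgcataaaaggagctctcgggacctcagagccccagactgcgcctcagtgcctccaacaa

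Cxcl3, chr5:90785851-90786100: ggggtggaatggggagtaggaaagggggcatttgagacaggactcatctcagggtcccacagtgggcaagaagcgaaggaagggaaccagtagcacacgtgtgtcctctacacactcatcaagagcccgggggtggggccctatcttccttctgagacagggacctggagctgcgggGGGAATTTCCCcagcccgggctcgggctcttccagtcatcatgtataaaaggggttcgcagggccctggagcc

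Cxcl1, chr5:90890995-90891244: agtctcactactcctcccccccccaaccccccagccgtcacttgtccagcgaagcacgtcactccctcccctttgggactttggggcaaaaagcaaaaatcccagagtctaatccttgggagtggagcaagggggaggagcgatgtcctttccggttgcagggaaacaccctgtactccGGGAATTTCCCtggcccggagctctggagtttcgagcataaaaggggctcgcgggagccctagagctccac

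The letters searched were GGGA and TTCC with any 2 bases between them, on both strands, and the 11 capitals hold 1 match on each strand, overlapping each other. They begin 97, 73 and 71 bases before the start of Cxcl2, Cxcl3 and Cxcl1. The motif was found in 1.21% of 32851 promoters of the same length. It was in 4 of 23 promoters of listed chemokines (21 of 30 genes matched): those of Cxcl1, Cxcl2, Cxcl3 and Cxcl10. Among the 12 genes with the largest increases, 11 were matched and 2 of 12 promoters held it. These matches describe letters and do not show binding.

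Of 30 listed chemokines, 28 were tested, 6 rose and 1 fell, with a median of 1.16. Cxcl2 (chr5:90903871-90905938, mm10) stood at 0.221, 0.351, 7.4 and 0.599 CPM in the 4 libraries of week 2 and at 106, 52.6, 81.9 and 26.1 CPM in those of week 3. Every week 3 library lay above every week 2 library, and replicate 3 of week 2 was far above the other libraries of its week. The log2 fold change was 4.96 (adjusted p = 0.0274 with edgeR, SE 1.06). Cxcl3 (chr5:90786103-90789600) went from 0.575, 0.994, 1.08 and 0.926 CPM to 55.4, 11.7, 29.9 and 3.41 CPM, a log2 fold change of 4.84 (adjusted p = 0.0154 with edgeR, SE 0.79). The weeks did not overlap, although the week 3 libraries spread widely. Cxcl5 (chr5:90759360-90761624) stood at 7.08, 2.86, 2.57 and 8.99 CPM and then at 257, 89.5, 87.3 and 25.4 CPM, with a log2 fold change of 4.44 (adjusted p = 0.0155 with edgeR, SE 0.73). Here too the weeks did not overlap. Cxcl1 had 0.664, 1.29, 16.8 and 5.18 CPM in week 2 and 64.8, 41.1, 17.9 and 11.8 CPM in week 3. Its weeks overlapped and it did not pass the test (log2 fold change 2.53, adjusted p = 0.114). Cxcl12, which guides many leukocytes and is made by stromal cells, rose by a log2 fold change of 1.62 (adjusted p = 0.0262). Ccl11, the eosinophil attractant eotaxin, fell by 1.38 on the log2 scale (adjusted p = 0.0183). Without replicate 2 of week 2 none rose, without replicate 1, 2 or 3 of week 3 the count was 2 or 3 up, and without replicate 4 of week 3 it was 9 up and 2 down.

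Several receptors of neutrophils rose as well. Trem1 (chr17:48232768-48246924), an activating receptor of neutrophils and monocytes, had 0.31, 0.292, 2.39 and 0.817 CPM in week 2 and 71.8, 37.6, 22.8 and 10.4 CPM in week 3. The weeks were far apart in all libraries (log2 fold change 5.22, adjusted p = 0.0146, SE 0.82). Csf3r, the receptor of the neutrophil growth factor G-CSF, stood at 8.36, 3.04, 21.1 and 8.12 CPM and then at 174, 85.1, 195 and 36.5 CPM (log2 fold change 3.62, adjusted p = 0.0196). Cxcr2 itself stood at 13.1, 6.78, 12.3 and 23 CPM and then at 168, 58.4, 59.9 and 31.6 CPM (log2 fold change 2.55, adjusted p = 0.0274). Neither receptor overlapped between the weeks, and replicate 4 was the lowest of week 3 for both. Clec4d, a C-type lectin of myeloid cells that senses mycobacterial glycolipids, rose by 4.69 (adjusted p = 0.0167) and held throughout. Fpr2, a receptor for formylated peptides, rose by 4.13 (adjusted p = 0.014) and also held throughout where it was tested. Cd177, a neutrophil surface protein, had 0.0885, 0.0585, 0.406 and 0.981 CPM in week 2 and 44.9, 3.78, 5.26 and 1.34 CPM in week 3. Its weeks did not overlap, but replicate 1 of week 3 was far above the rest (log2 fold change 5.20, adjusted p = 0.0366, SE 1.26). Ly6g, the defining surface marker of mouse neutrophils, was too low to test. It had 0 counts in all 4 libraries of week 2 and 182, 0, 5 and 0 counts in week 3, where 0 counts allow up to 3 counts, or 0.126 to 0.163 CPM in the libraries at 0. Retnlg, another neutrophil marker, was likewise carried by replicate 1 at 79 CPM against at most 3.01 CPM in the other libraries of week 3. Its weeks overlapped, and it was not called (adjusted p = 0.0608). Mpo, the peroxidase of neutrophil granules, had 1.55, 0.879, 1.35 and 1.91 CPM in week 2 and 1.1, 1.96, 2.06 and 1.98 CPM in week 3, overlapped and was not called (log2 fold change 0.34, adjusted p = 0.571). Elane, the granule elastase, had at most 5 counts in any of these libraries. Of 23 neutrophil genes, 17 passed the filter on low counts, many of them through their week 3 values alone, and 9 of these rose and none fell. Without replicate 2 or 3 of week 2 the count was 3 or 5, and without replicate 4 of week 3 it was 12. The mean log2 level of the list was 0.609, 0.237, 1.19 and 1.23 in week 2 and 4.74, 2.90, 3.00 and 2.03 in week 3.

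Among genes of the inflammatory response, Acod1, Saa3 and Lcn2 rose too, and so did 3 cytokine genes. Acod1 (chr14:103046977-103056573), which makes the antimicrobial metabolite itaconate in activated myeloid cells, had 0.398, 0, 1.35 and 0.272 CPM in week 2 and 66, 37.1, 30.7 and 18 CPM in week 3. All week 3 libraries were well above week 2, and the increase was the largest of the named genes (log2 fold change 6.19, adjusted p = 0.0115, SE 0.80), held throughout. Saa3 (chr7:46711998-46715700), an inducible serum amyloid A, stood at 4.25, 5.67, 3.84 and 12.6 CPM and then at 316, 82, 311 and 76.1 CPM. The weeks were separated by a wide gap (log2 fold change 4.93, adjusted p = 0.012, SE 0.66), and the call held throughout. Lcn2 (chr2:32384633-32388252), an iron-sequestering protein of neutrophils and stressed epithelium, had 0.664, 1.52, 1.49 and 1.14 CPM in week 2 and 142, 22.6, 68.2 and 7 CPM in week 3. It did not overlap either, though week 3 spread from replicate 4 to replicate 1 (log2 fold change 5.67, adjusted p = 0.0146, SE 0.90). Of 20 tested interleukin and TNF family genes 3 rose, all members of the interleukin 6 family: Osm by 3.46 (adjusted p = 0.0153), Il11 by 3.34 (adjusted p = 0.0199) and Lif by 2.37 (adjusted p = 0.0499). Only Osm, which myeloid cells secrete, held throughout, and the count was 1 without replicate 2 or 3 of week 2. Il1b, the central cytokine of inflammasome activation, stood at 1.55, 7.19, 36.8 and 18.8 CPM and then at 220, 175, 97 and 42.9 CPM. Its weeks did not overlap, and it was not called (log2 fold change 3.08, adjusted p = 0.0529). Spp1 (osteopontin, chr5:104435118-104441050), a secreted phosphoprotein of macrophages and wounded tissue, rose from 2.88, 1.4, 2.08 and 2.34 CPM to 79, 22.9, 36.4 and 18.7 CPM. Week 2 was tight and all week 3 values lay far above it (log2 fold change 4.20, adjusted p = 0.00955, SE 0.50), which held throughout. Slc13a3, a carrier of dicarboxylates, rose by 4.30 (adjusted p = 0.0264, SE 0.90) from 1.05 to 4.73 CPM to between 11 and 162 CPM.

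**Figure D2:**
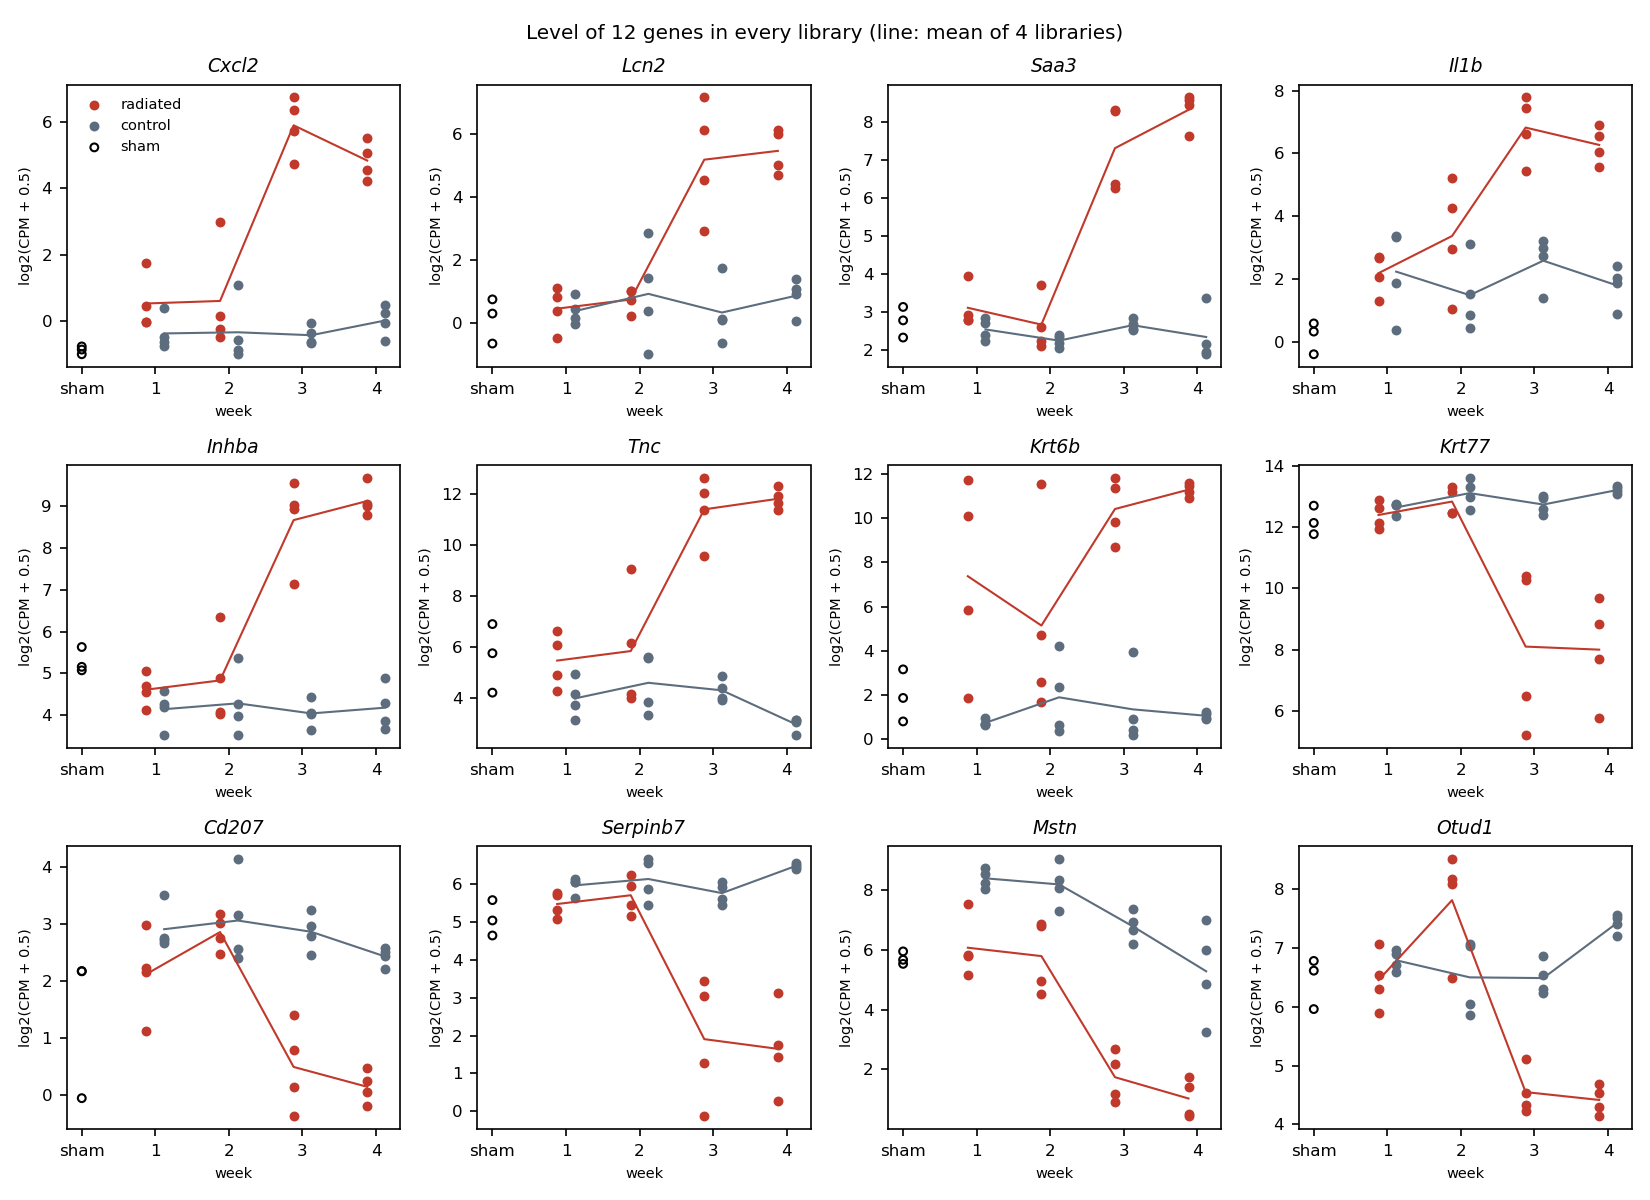
Level of 12 genes in every library on a log2(CPM + 0.5) scale (y axis) by week (x axis), with radiated skin in red, control skin in blue, sham in open circles and lines through the group means. Cxcl2, Lcn2 and Saa3 are low in radiated skin until week 2 and high in weeks 3 and 4, while Krt77, Cd207, Serpinb7, Mstn and Otud1 drop between weeks 2 and 3 and stay low at week 4.

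The same genes were read in the neighbouring weeks and in control skin. Cxcl2 averaged 1.16 CPM in radiated skin at week 1 and 29.6 CPM at week 4, against 0.46 ± 0.775 and 0.254 ± 0.152 CPM (SD, n = 4) in control skin of weeks 2 and 3. Saa3 averaged 8.74 CPM at week 1 and 328 CPM at week 4 and was 4.3 ± 0.518 and 5.85 ± 0.638 CPM (SD, n = 4) in control skin of weeks 2 and 3. Lcn2 averaged 47.1 CPM at week 4 and 2.43 ± 3 and 1.03 ± 1.22 CPM (SD, n = 4) in control skin.

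Macrophage genes showed a weaker pattern, and control skin had a similar median change. Of 25 tested genes 4 rose and none fell, and 24 had a positive change with a median of 1.25. Cd14, the co-receptor for bacterial lipopolysaccharide, stood at 27.8, 18.1, 34.4 and 15.6 CPM and then at 265, 139, 129 and 40.1 CPM (log2 fold change 2.61, adjusted p = 0.022). No value of week 3 fell within week 2. Trem2, a lipid receptor of macrophages, rose by 1.87 (adjusted p = 0.0281). The defining markers did not pass the test. Adgre1 (F4/80) had 97.1, 15.8, 16.1 and 19.3 CPM in week 2 and 52.6, 40.7, 82.7 and 32.6 CPM in week 3, so replicate 1 of week 2 exceeded all of week 3. Csf1r and C1qa were also highest in that library within week 2, at 193 and 243 CPM, and had adjusted p-values of 0.279 and 0.208. Without it, 13 macrophage genes were called, without replicate 2 or replicate 3 of week 2 none was, without replicate 1, 2 or 3 of week 3 there were 2, and without replicate 4 of week 3 there were 9. With total counts 8 rose, and with the DESeq2 test or in 1 fit over all libraries 10 did. In control skin the median of the same genes between the same weeks was 1.33, and 2 were called.

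Interferon-stimulated genes did not pass the edgeR test in either direction. In radiated skin 25 of 27 were positive with a median of 0.83 and none was called by edgeR. The DESeq2 test called 7 of them higher, 1 fit over all libraries 4 and limma-voom 2. Control skin had a median of 1.68 with none called. The smallest adjusted p in radiated skin was that of Oas1a, an antiviral RNA-sensing synthetase, at 0.0833, with week 2 at 20, 4.33, 3.84 and 9.97 CPM and week 3 at 22.5, 34.5, 36.3 and 18.7 CPM. The weeks overlapped through replicate 1 of week 2, and without that library 9 of the genes were called higher.

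Of 15 tested genes of Langerhans and dendritic cells 1 rose and 1 fell, with a median of -0.06, and neither was called without replicate 2 or 3 of week 2 or replicate 3 of week 3. Cd207 (langerin, chr6:83671215-83677857), the marker of Langerhans cells, stood at 5.09, 6.31, 7.68 and 8.55 CPM in week 2 and at 0.274, 2.15, 0.609 and 1.24 CPM in week 3. It fell by 2.67 on the log2 scale (adjusted p = 0.0221, SE 0.52) with no overlap, and averaged 0.624 CPM at week 4. Epcam, which Langerhans cells share with keratinocytes, was lower in all 4 libraries of week 3 and was not called (log2 fold change -1.14, adjusted p = 0.132). Flt3, the growth factor receptor of dendritic cell precursors, rose by 1.12 (adjusted p = 0.0239). The Skint genes encode a family of keratinocyte proteins linked to the γδ T cells of mouse epidermis, and all 11 had a negative change with a median of -2.29. Skint10 (chr4:112711147-112774866) went from 16.6, 30.9, 19.3 and 7.79 CPM to 0, 1.31, 0.0381 and 3.09 CPM. No value overlapped (log2 fold change -4.06, adjusted p = 0.045, SE 1.06), and the replicates 2 and 4 kept the most. Skint3 fell by 2.29 on the log2 scale (adjusted p = 0.036). For the other 9 the test was not passed, and the number called ranged from 0 to 6 as single libraries were left out. Members of this family are alike in sequence, so their estimated counts are less certain. Of 19 tested T cell genes none rose and 1 fell, with a median of 0.60. Among the uncalled, Cd3e (adjusted p = 0.784) and Cd3g (adjusted p = 0.956) had log2 fold changes of -0.22 and -0.04, and the γδ receptor gene Trdc one of 2.19 (adjusted p = 0.0682).

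Genes of the mast cell list split. Hdc (chr2:126593667-126619299), the enzyme that makes histamine, was also on the neutrophil list. It stood at 8.71, 8.18, 20.9 and 12.6 CPM and then at 221, 140, 128 and 59.3 CPM, without overlap (log2 fold change 3.47, adjusted p = 0.0115, SE 0.45), and held throughout. Srgn, a granule proteoglycan of many blood cells, rose by 2.65 (adjusted p = 0.0142) and held throughout, and Il1rl1, the interleukin 33 receptor, rose by 2.93 (adjusted p = 0.0164). The mast cell proteases were not called: Cpa3, Mcpt4 and Cma1 had log2 fold changes of 0.24, 0.63 and 1.00. Mrgprb2, the receptor through which mouse mast cells respond to cationic drugs, fell by 2.40 on the log2 scale (adjusted p = 0.018), from 2.89 to 6.08 CPM down to 0.495 to 1.52 CPM. Mrgprb3 fell by 3.42 (adjusted p = 0.0326). Of 13 genes 4 rose and 2 fell. Without replicate 2 of week 2 the count was 3 up and none down, without its replicate 3 it was 2 up and none down, and without replicate 1, 2 or 3 of week 3 it was 3 or 4 up and 1 down.

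**Figure D3:**
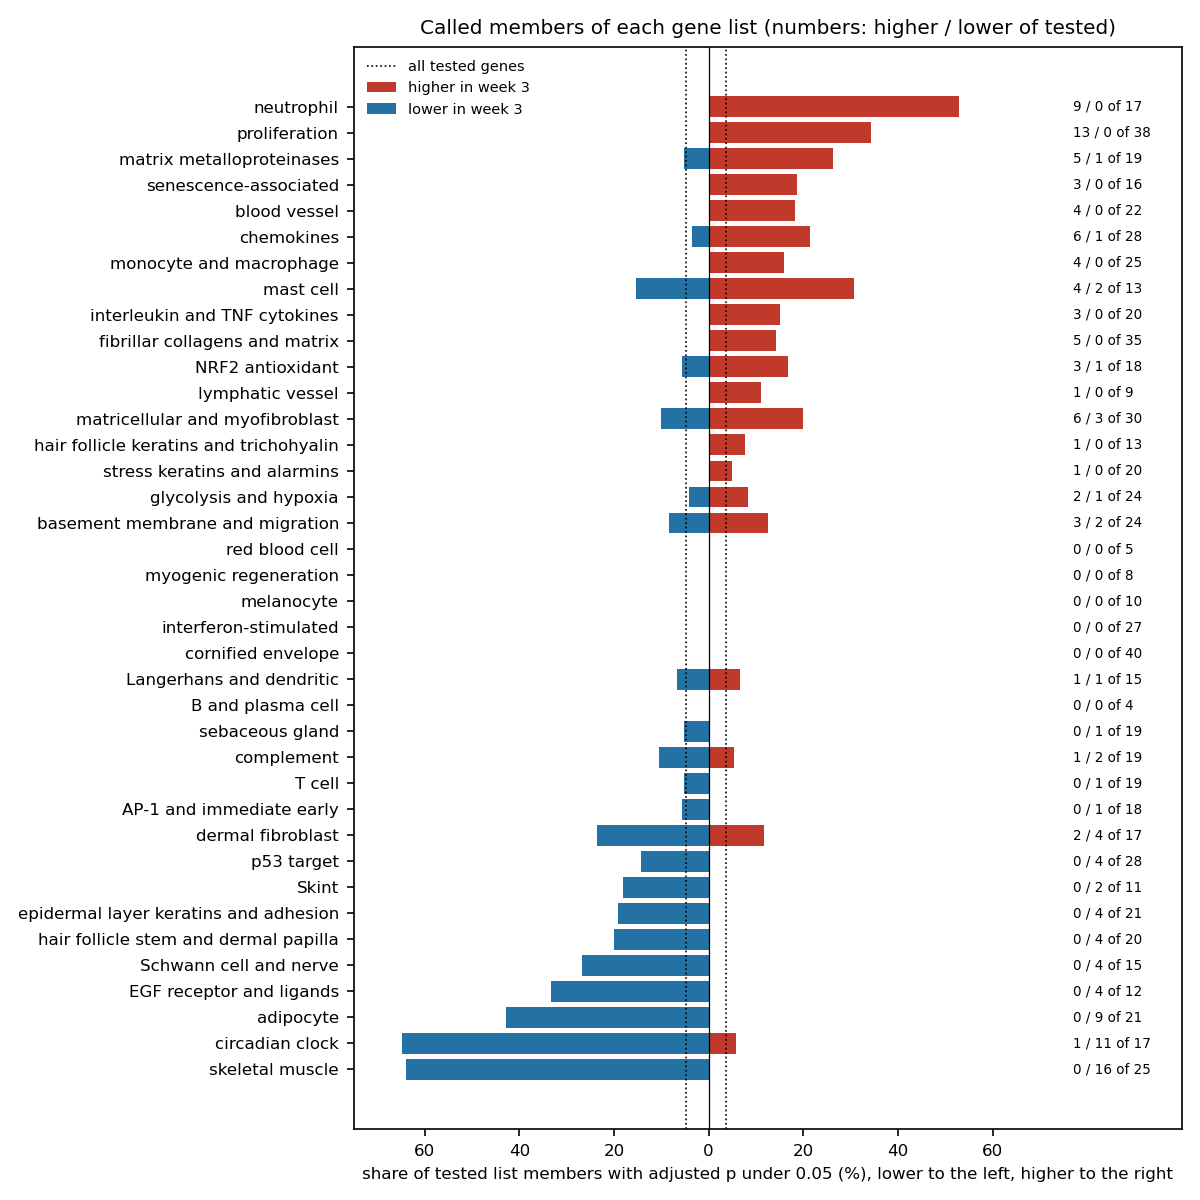
Share of the tested members of each gene list that passed the test (x axis, percent), with genes higher in week 3 as red bars to the right and genes lower in week 3 as blue bars to the left. Dotted lines mark the 3.6% and 4.81% of all tested genes, and the numbers give higher and lower calls of those tested, from 9 of 17 neutrophil genes higher, many of which passed the filter on low counts through their week 3 values alone, to 16 of 25 skeletal muscle genes lower. The lists were chosen with earlier results of these data known, so the lines are a reference and no test.

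In the epidermis, 4 of 21 genes of layer keratins and adhesion fell and none rose. Krt80 (chr15:101347444-101370162), a keratin of differentiating keratinocytes, stood at 535, 819, 920 and 999 CPM and then at 125, 241, 201 and 327 CPM, with no overlap (log2 fold change -1.85, adjusted p = 0.0164, SE 0.31). Klf4, a transcription factor of the skin barrier, went from 777, 1715, 2518 and 1396 CPM to 389, 389, 528 and 610 CPM (log2 fold change -1.72, adjusted p = 0.0226). Both were lower in every library of week 3. Krt2, a keratin of the upper layers, fell by 3.07 (adjusted p = 0.0184), and Perp, a desmosome protein, fell by 1.28 on the log2 scale (adjusted p = 0.0493). Those were the 4 calls of the list, whose median was -1.0. The count was 1 without replicate 2 or 3 of week 2, 2 without replicate 1, 2 or 3 of week 3, and 6 without replicate 4 of week 3. Serpinb7 (chr1:107399655-107452689), a protease inhibitor of the upper epidermis, fell from 43.6, 75.1, 62 and 35.6 CPM to 0.412, 7.7, 1.9 and 10.5 CPM. The replicates 1 and 3 of week 3 had nearly lost it, and the replicates 2 and 4 kept some (log2 fold change -3.38, adjusted p = 0.0311, SE 0.76). Dapl1, an early differentiation-associated gene of epithelia, followed the same order within week 3, at 0.32, 4.8, 0.609 and 5.62 CPM against 18.4 to 46.1 CPM in week 2 (log2 fold change -3.36, adjusted p = 0.0345). Krt77 was also lowest in the replicates 1 and 3 of week 3 and was not called. It stood at 5621, 8978, 10096 and 5598 CPM and then at 90.2, 1250.1, 36.5 and 1358 CPM (log2 fold change -3.45, adjusted p = 0.063), with the weeks separated. Flg2, a filaggrin-like barrier protein, had 2474, 3389, 6231 and 2538 CPM and then 17.6, 484, 172 and 921 CPM (log2 fold change -3.18, adjusted p = 0.0604). The spread among the week 3 libraries of both genes was wide, and the weeks did not overlap.

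The general keratinocyte markers did not pass. Krt5 was 4174, 6348, 6775 and 4524 CPM in week 2 and 1966, 3003, 3289 and 4012 CPM in week 3 (log2 fold change -0.81, adjusted p = 0.0979). Krt14 (0.75, adjusted p = 0.361) and Krt10 (-1.74, adjusted p = 0.227) overlapped between the weeks. Krt1 had 264, 451, 464 and 1127 CPM in week 2 and 7.13, 282, 906 and 3312 CPM in week 3, so that no common direction could be read (0.97, adjusted p = 0.623). The sign of Krt1 depends on the processing: it was -0.51 without replicate 4 of week 3.

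Of 20 tested keratins and alarmins of wounded epidermis 1 was called, and in the mean level of the list replicate 4 of week 2 lay within the range of week 3. Krt16 stood at 91.2, 135, 160 and 5165 CPM in week 2 and at 1627, 2516, 5643 and 6897 CPM in week 3. Krt6b stood at 5.53, 2.69, 26.1 and 3022 CPM and then at 409, 900, 3575 and 2636 CPM, and Krt6a at 430, 437, 632 and 4383 CPM and then at 2197, 2284, 5164 and 3356 CPM. In all of these genes replicate 4 of week 2 was within the range of week 3 while the other libraries of week 2 were below it. Their adjusted p-values were 0.431, 0.667 and 0.35. Krt6a and Krt6b are close copies, and their counts depend on how reads were shared. The called gene of the list was Lcn2, and the median log2 fold change was 1.23. Without replicate 4 of week 2 there were 11 calls, all higher, and a median of 3.94. The alarmins S100a8 and S100a9, which neutrophils and stressed keratinocytes both make, also had replicate 4 as the highest of week 2. S100a9 had 0.487, 0.526, 3.07 and 16 CPM and then 220, 33.7, 39.1 and 21.9 CPM (log2 fold change 4.00, adjusted p = 0.0685). Its weeks did not overlap, and neither did those of S100a8 (4.13, adjusted p = 0.075). None of 40 cornified envelope genes was called, and 21 had a positive change with a median of 0.55. Without replicate 4 of week 2, 6 of them were called higher, without replicate 1 or 4 of week 3, 2 or 3 were called lower, and without replicate 3 or 4 of week 3 the median was -0.61 or -0.54.

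Among the EGF receptor family and its ligands, which drive keratinocyte growth, 4 of 12 genes fell and none rose. Ereg (epiregulin), a ligand of the EGF receptor, stood at 53.5, 87.4, 115 and 131 CPM and then at 34.1, 45.6, 27.4 and 32.4 CPM (log2 fold change -1.45, adjusted p = 0.0222, SE 0.29). Epgn (epigen), another ligand, went from 30.2, 60.4, 135 and 205 CPM to 21.6, 22.3, 14.6 and 3.73 CPM (log2 fold change -2.77, adjusted p = 0.0373, SE 0.67). In both, every week 3 library was below every week 2 library. Egf fell by 1.14 (adjusted p = 0.0199) and Btc by 1.07 on the log2 scale (adjusted p = 0.0343). The receptor subunit Erbb2 was not called (adjusted p = 0.151). Without replicate 2 of week 2, or without replicate 1 of week 3, none of the group was called, and without replicate 3 of week 2 or replicate 2 or 3 of week 3 there was 1 call.

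Of 38 tested cell division genes, 13 rose and none fell. A positive change was found in 35, the median was 0.84, and in 20 the weeks were separated. Mki67 (chr7:135689784-135716361), a marker of cycling cells, stood at 74.2, 76.2, 74.8 and 67.3 CPM in week 2 and at 100, 150, 135 and 224 CPM in week 3. Week 2 was tight and all of week 3 lay above it (log2 fold change 1.08, adjusted p = 0.0264, SE 0.23). Mcm3, part of the helicase that licenses DNA replication, stood at 22.4, 16.7, 23.2 and 18.5 CPM and then at 36.9, 39.5, 39 and 39.3 CPM (log2 fold change 0.96, adjusted p = 0.017, SE 0.17). Cdk1, the kinase of mitotic entry, rose by 1.32 (adjusted p = 0.0183), and Ccnb1, its cyclin partner, by 1.78 (adjusted p = 0.0197). Week 3 was higher in all 4 libraries for these genes too. The count of calls was 0 without replicate 2 of week 2, 3 without its replicate 3, and 6 without replicate 2 or 3 of week 3. In control skin the median of the list was -0.55. The mean log2 level of the list there was 4.814, 3.172, 3.272 and 3.001 in week 2 and 2.909, 3.484, 3.235 and 3.639 in week 3. Only replicate 1 of control week 2 lay above the range of control week 3. Lmnb1, a nuclear lamina gene that is low in senescent cells, rose from 24.1, 27.8, 28.9 and 29.6 CPM to 152, 105, 71.9 and 66.6 CPM (log2 fold change 1.87, adjusted p = 0.014, SE 0.27), held throughout. It is on the list of senescence-associated genes, of which 3 of 16 rose and none fell, with a median of 1.10. The other two are Mmp3 and Plaur, an enzyme and a receptor found in the secretions and on the surface of senescent cells. The count was 1 without replicate 2 of week 2 or replicate 3 of week 3 and 5 without replicate 4 of week 3.

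Of 28 tested targets of p53, the transcription factor of the DNA damage response, 4 fell and none rose. The count was 1 without replicate 2 or 3 of week 2 and 2 without replicate 1, 2 or 3 of week 3. Trp53inp1 (chr4:11156431-11174379), a stress-induced regulator of cell death, stood at 283, 255, 604 and 276 CPM and then at 79.7, 70.5, 57.1 and 109 CPM (log2 fold change -2.14, adjusted p = 0.0144, SE 0.33), without overlap, and held throughout. Ccng1, cyclin G1, went from 242, 227, 229 and 221 CPM to 96.2, 74.5, 126 and 59.5 CPM (log2 fold change -1.34, adjusted p = 0.0173). Ei24 fell by 0.87 (adjusted p = 0.028), and Perp, counted above, is the fourth. Cdkn1a (p21), the cell cycle inhibitor, had 426, 804, 1760.3 and 1003 CPM in week 2 and 398, 494, 634 and 280 CPM in week 3. Its weeks overlapped and it was not called (log2 fold change -1.12, adjusted p = 0.117).

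**Figure D4:**
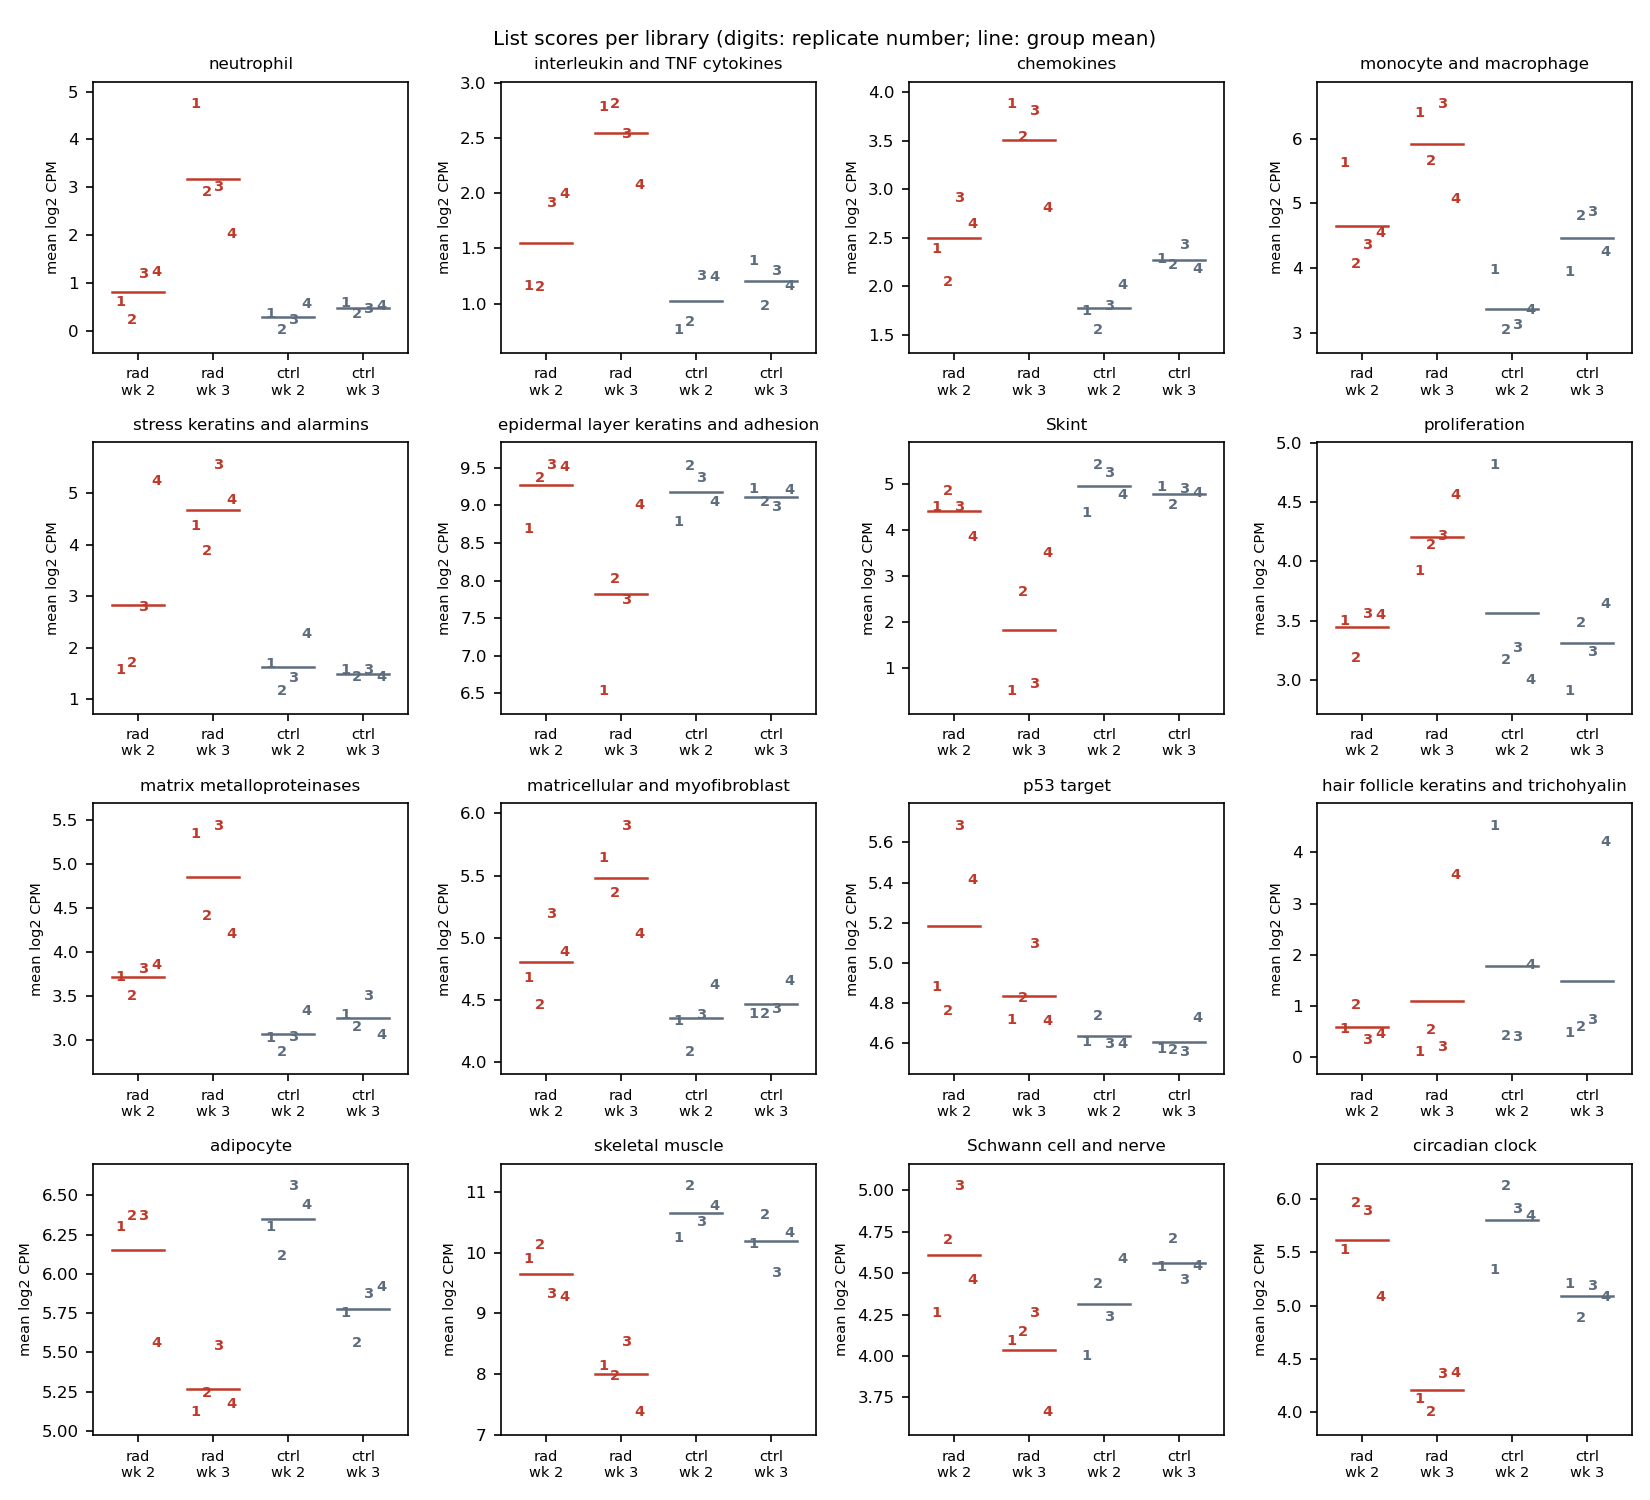
Mean log2(CPM + 0.5) of the members of 16 gene lists (y axis) in the radiated and control libraries of weeks 2 and 3 (x axis), with each library drawn as its replicate number and a line at the group mean. Replicate 4 of week 2 lies with week 3 for stress keratins, and replicate 4 of week 3 alone is high for hair follicle keratins, at 3.56 against 0.1 to 0.528 in the other libraries of week 3.

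Of 19 tested genes of matrix-degrading enzymes and their inhibitors, 5 rose and 1 fell. Mmp3 (stromelysin) stood at 55.5, 39.9, 26.7 and 39 CPM and then at 961, 165, 389 and 84.5 CPM (log2 fold change 3.35, adjusted p = 0.0247, SE 0.69). Mmp9, a gelatinase of myeloid cells and wound-edge keratinocytes, stood at 2.7, 3.22, 5.78 and 2.72 CPM and then at 106, 14.2, 46.7 and 16.6 CPM (log2 fold change 3.70, adjusted p = 0.019, SE 0.67). Replicate 1 of week 3 was the highest library for both, and no library overlapped. Mmp13, a collagenase, had 0.133, 0.117, 0.0903 and 2.12 CPM in week 2 and 32.8, 5.5, 17.3 and 4.15 CPM in week 3 (log2 fold change 4.65, adjusted p = 0.0342, SE 1.09). Here replicate 4 of week 2 was above the others of its week, and the 3 low libraries were at or near the floor of 3 counts. Timp1, an inhibitor of these enzymes, rose by 4.15 (adjusted p = 0.0223), from 1.37 to 10 CPM up to 19.9 to 176 CPM. In contrast, Timp3, the inhibitor bound to matrix, fell from 640, 690, 924 and 558 CPM to 117, 212, 127 and 266 CPM (log2 fold change -1.94, adjusted p = 0.0146, SE 0.30), held throughout. Without replicate 2 of week 2 none of this list rose, without its replicate 3 there was 1, and without replicate 1 of week 2 or replicate 1, 2 or 3 of week 3 there were 2 or 3.

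Matrix and fibroblast genes divided. Inhba (chr13:16011851-16031621), the subunit of activin A, a TGF-beta family ligand of wound healing, stood at 15.9, 16.4, 28.9 and 80.6 CPM and then at 749, 487, 518 and 141 CPM. The weeks did not overlap (log2 fold change 3.77, adjusted p = 0.0187, SE 0.67). Adam12, a metalloprotease of activated fibroblasts, rose from 11.8, 5.85, 10.1 and 10.6 CPM to 71.4, 37.6, 41.1 and 36 CPM (log2 fold change 2.30, adjusted p = 0.012, SE 0.31), held throughout. Tnc (tenascin C), a glycoprotein of wound matrix, had 17.4, 15.5, 72.1 and 536 CPM in week 2 and 4198, 2645, 6279.6 and 768 CPM in week 3. Replicate 4 was the extreme of both weeks, and although the weeks did not overlap it was not called (log2 fold change 4.46, adjusted p = 0.0536). Fbn2 (fibrillin 2) rose by 2.14 (adjusted p = 0.0115) and held throughout, and Col12a1, a collagen on the surface of fibrils, rose by 2.18 (adjusted p = 0.0196). The main dermal collagens Col1a1 (0.76, adjusted p = 0.29) and Col3a1 (0.83, adjusted p = 0.175) overlapped between weeks. In all, 5 of 35 collagen and matrix genes rose and none fell, with a median of 0.70, and the count was 1 without replicate 2 or 3 of week 2, 11 with total counts, and 14 with the DESeq2 test or in 1 fit over all libraries. Ccn2 (connective tissue growth factor) fell by 2.08 on the log2 scale (adjusted p = 0.0196), while Ccn4, a WNT-induced member of the same family, rose by 2.08 (adjusted p = 0.0197). Of 30 tested matricellular and myofibroblast genes, Spp1, Inhba, Adam12 and Ccn2 among them, 6 rose and 3 fell. The count was 2 up and none down without replicate 2 of week 2, 3 up and 1 down without its replicate 3, 5 up and none down without replicate 1 of week 3, 6 up and 1 down without its replicate 2, and 9 up and 3 down without its replicate 4.

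Among dermal fibroblast genes 4 fell and 2 rose of 17 tested. None was called without replicate 2 or 3 of week 2 or replicate 1 of week 3, and 1 was without replicate 2 or 3 of week 3. Dpt (dermatopontin) stood at 238, 176, 129 and 89.4 CPM and then at 63.8, 60.5, 67.6 and 55 CPM (log2 fold change -1.33, adjusted p = 0.025). Cd34, a surface protein of dermal fibroblasts, vessels and follicle stem cells, fell by 1.32 (adjusted p = 0.0264), and Gsn (gelsolin), an actin-severing protein, by 1.29 on the log2 scale (adjusted p = 0.0221). Pdgfrb, the growth factor receptor of pericytes and fibroblasts, rose by 1.54 (adjusted p = 0.038). Pdgfra, the general fibroblast marker of the list, was not called (0.90, adjusted p = 0.0999).

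Of 22 blood vessel genes 4 rose and none fell. None was called without replicate 2 or 3 of week 2, 1 or 2 were without replicate 1 or 4 of week 2 or replicate 1, 2 or 3 of week 3, and 9 were without replicate 4 of week 3. With DESeq2 size factors, without the filter or with limma-voom there were 2, and with total counts, the DESeq2 test or 1 fit over all libraries there were 8, 9 and 10. Apln (apelin), a peptide of sprouting endothelial tip cells, stood at 2.65, 2.51, 6.64 and 7.08 CPM and then at 78.5, 21, 32 and 15.8 CPM, with no overlap (log2 fold change 2.99, adjusted p = 0.0218, SE 0.58). Selp (P-selectin), which lets leukocytes roll on endothelium, rose from 3.76, 20.1, 21.4 and 11.7 CPM to 85.3, 32, 92.4 and 31.4 CPM (log2 fold change 2.12, adjusted p = 0.0482). Angpt2, an antagonist of vessel quiescence, rose by 0.91 (adjusted p = 0.0444). The endothelial markers Pecam1 (0.97, adjusted p = 0.07), Cdh5 (1.05, adjusted p = 0.148) and Kdr (0.89, adjusted p = 0.0665) were not called. The lymphatic marker Prox1 had a log2 fold change of 0.05 (adjusted p = 0.918), and Pdpn, the 1 gene called in the lymphatic list, is also made by keratinocytes and fibroblasts. It rose by 2.23 (adjusted p = 0.0341).

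Of 15 Schwann cell genes 4 fell and none rose, with a median of -0.80. The count was 2 without replicate 2 or 3 of week 2 or any library of week 3. Cdh19, a cadherin of the Schwann lineage, stood at 14.7, 15.4, 19.1 and 9.26 CPM and then at 5.21, 3.4, 3.5 and 2.99 CPM (log2 fold change -1.92, adjusted p = 0.014, SE 0.28). S100b went from 5.57, 5.03, 6.64 and 4.41 CPM to 1.83, 1.45, 1.87 and 1.84 CPM (log2 fold change -1.60, adjusted p = 0.0144, SE 0.24). Both were separated, and both held throughout where they were tested. The myelin genes Prx and Mbp fell by 0.98 (adjusted p = 0.0371) and 0.80 (adjusted p = 0.0493). Sox10, the lineage factor, was not called (0.22, adjusted p = 0.802).

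Of 25 skeletal muscle genes 16 fell and none rose, with a median of -1.60. Mstn (myostatin, chr1:53061640-53068079), the inhibitor of muscle growth, stood at 110, 116, 22.5 and 30.8 CPM in week 2 and at 1.37, 1.77, 5.94 and 4.01 CPM in week 3. It did not overlap and had the largest decrease of the named genes (log2 fold change -4.38, adjusted p = 0.0146, SE 0.69), held throughout. Mylk4 (chr13:32700834-32783954), a myosin light chain kinase family member, went from 381, 428, 144 and 168 CPM to 17.2, 20.6, 15.8 and 19.1 CPM (log2 fold change -3.92, adjusted p = 0.00652, SE 0.38), held throughout. In both, the replicates 3 and 4 of week 2 were lower than its replicates 1 and 2. Mylk4 is not on the list, and neither are Ky and Tmem233. Ky, a protein of neuromuscular junction maintenance, fell by 3.40 (adjusted p = 0.0178) and Tmem233, a membrane protein, by 3.62 (adjusted p = 0.0153). Of the contractile and calcium-store genes, Myoz1 fell by 2.56 (adjusted p = 0.0138), Casq1 by 2.03 (adjusted p = 0.0138) and Mylpf by 2.22 (adjusted p = 0.0163) on the log2 scale. Acta1, the skeletal actin, had 1536, 1458, 1500.2 and 773 CPM and then 660, 340, 1504 and 256 CPM, overlapped through replicate 3 of week 3 and was not called (-0.90, adjusted p = 0.29). Without replicate 2 of week 2 there were 3 calls, without its replicate 3 there were 6, and without replicate 1 or 2 of week 3 there were 7. None of 8 tested genes of muscle regeneration was called, Myog and Pax7 among them (0.43 and -0.52). In control skin the median of the muscle list between the same weeks was -0.46. Control skin of week 2 had 318 ± 152 CPM of Mstn and 648 ± 130 CPM of Mylk4 (SD, n = 4), more than radiated skin of that week, and in week 3 it had 115 ± 37.8 CPM and 141 ± 23.2 CPM. Between those weeks Mstn had a log2 fold change of -1.46 in control skin and was not called (adjusted p = 0.138). The amount of muscle a biopsy holds can differ with its depth, which the labels do not record, and its part in the result was not tested.

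Fat genes followed: 9 of 21 fell and none rose, with a median of -0.80. Thrsp (chr7:97412938-97417730), a regulator of fatty acid synthesis, stood at 43.9, 27.4, 26.3 and 9.43 CPM and then at 1.1, 1.73, 1.3 and 2.26 CPM (log2 fold change -4.04, adjusted p = 0.00955, SE 0.46), separated and held throughout. Adipoq (adiponectin), a hormone of mature fat cells, went from 83.7, 83.9, 77.1 and 35.2 CPM to 19.5, 24.9, 30.3 and 24.9 CPM (log2 fold change -1.46, adjusted p = 0.0205, SE 0.28). Replicate 4 of week 2 was nearest to week 3 for both. Lep (leptin) fell by 1.13 (adjusted p = 0.0261), Slc2a4, the insulin-regulated glucose carrier, by 1.27 (adjusted p = 0.028) and Plin1, the coat protein of fat droplets, by 1.19 on the log2 scale (adjusted p = 0.034). In control skin Thrsp fell too, by 2.09 (adjusted p = 0.0282), and the median of the list was -0.49. The count of fat genes called in radiated skin was 1 without replicate 2 or 3 of week 2 or without replicate 2 of week 3, 2 without replicate 1 of week 3, 4 without its replicate 3 and 5 without replicate 1 of week 2.

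Further genes with large decreases belonged to no list. Cyp2e1, a cytochrome P450 of alcohol and drug metabolism, stood at 63.1, 54, 40.6 and 6.59 CPM and then at 1.6, 1.68, 1.94 and 4.74 CPM (log2 fold change -4.02, adjusted p = 0.0158). Myoc (myocilin), a secreted glycoprotein, had 22.8, 36.9, 23.2 and 5.07 CPM and then 0.229, 1.68, 1.45 and 2.95 CPM (log2 fold change -3.77, adjusted p = 0.0206). In both, replicate 4 was the lowest of week 2 and the highest of week 3, and the weeks did not overlap. Otud1 (chr2:19657752-19660583), a deubiquitinase, fell from 288, 362, 271 and 88.7 CPM to 19.5, 34.3, 22.7 and 18.1 CPM (log2 fold change -3.38, adjusted p = 0.0106, SE 0.42), held throughout.

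In the hair follicle, 4 of 20 stem cell and dermal papilla genes fell and none rose, with a median of -0.69. None was called without replicate 2 or 3 of week 2 or replicate 3 of week 3, 1 was without replicate 1 of week 3, and 2 were without replicate 4 of week 2. Sox9, a transcription factor of follicle progenitors, stood at 154, 239, 184 and 270 CPM and then at 94.6, 132, 48.8 and 80.2 CPM (log2 fold change -1.22, adjusted p = 0.039), and Krt75, a companion layer keratin, fell by 1.65 (adjusted p = 0.0448). Bmp6, a signal of follicle rest, fell by 1.58 on the log2 scale (adjusted p = 0.0268). Hair shaft and sheath keratins were high in replicate 4 of week 3 alone. Krt71 had 0.575, 3.68, 0.181 and 0.0545 CPM in week 2 and 0.274, 1.96, 0 and 196 CPM in week 3 (log2 fold change 5.52, adjusted p = 0.145), and without that library its log2 fold change was -0.55. Padi3, an enzyme that modifies trichohyalin, was the 1 called gene of 13 (3.69, adjusted p = 0.0385), and it too was highest in that library, at 10.9 CPM against 0.653 to 2.17 CPM. In the sebaceous gland list Dgat2, a triglyceride-making enzyme, was the 1 call of 19 and fell by 1.12 (adjusted p = 0.0146), while the sebocyte markers Awat2 (adjusted p = 0.694) and Mc5r (adjusted p = 0.692) were not called.

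Carriers of glucose, lactate and cystine were among the metabolic genes that rose. Slc2a1, the general glucose carrier, rose from 39.8, 61.7, 72.4 and 50.6 CPM to 129, 107, 187 and 175 CPM (log2 fold change 1.44, adjusted p = 0.0167, SE 0.24), and Slc16a3, a lactate exporter, rose by 2.22 (adjusted p = 0.0199). The rest of 24 glycolysis and hypoxia genes had 1 call, Bnip3, which fell by 1.14 on the log2 scale (adjusted p = 0.0311), and none was called without replicate 2 of week 2. Slc7a11, the cystine importer and a target of the antioxidant factor NRF2, rose from 7.92, 7.83, 19.7 and 40.5 CPM to 211, 154, 105 and 74.8 CPM (log2 fold change 2.87, adjusted p = 0.0229, SE 0.58). The weeks were separated. Gsr, glutathione reductase, rose by 1.84 (adjusted p = 0.0279), and in all 3 of 18 such genes rose and 1, Gstm1, fell by 1.36 on the log2 scale (adjusted p = 0.0369). None of these was called without replicate 2 or 3 of week 2 or replicate 1 or 2 of week 3, 1 was without replicate 3 of week 3, and Gstm1 was not with limma-voom. Immediate early genes had a median of -0.90 with 1 call of 18, Egr3 (-1.44, adjusted p = 0.0343). Fosb was highest in replicate 3 of week 2, at 2380.3 CPM against 136 to 478 CPM in the other libraries of that week, and was not called (adjusted p = 0.0686).

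The circadian clock list changed in both skins. Of 17 genes in radiated skin 11 fell and 1 rose, with a median of -1.82, and 6 fell without replicate 2 of week 2. Tef (chr15:81802421-81826863), an output transcription factor of the clock, stood at 124, 124, 144 and 84.8 CPM and then at 25.5, 16.3, 25.6 and 29.4 CPM (log2 fold change -2.28, adjusted p = 0.00724, SE 0.23). Per2, a repressor of the clock, went from 50.2, 100, 97.1 and 28.8 CPM to 13, 6.06, 10.1 and 7.55 CPM (log2 fold change -2.88, adjusted p = 0.014, SE 0.42). Npas2, an activator of the clock, moved the other way, from 2.83, 4.27, 1.72 and 3.16 CPM to 7.09, 12, 13.3 and 8.57 CPM (log2 fold change 1.81, adjusted p = 0.019, SE 0.33). In all of these the weeks were separated, and the calls held throughout. Nr1d2, Cry2 and Hlf also fell and held throughout, by 2.33 (adjusted p = 0.00955), 2.01 (adjusted p = 0.014) and 3.18 (adjusted p = 0.014) on the log2 scale. In control skin 5 of these genes fell and 1 rose, with a median of -0.86. There Tef went from 141 ± 31.6 to 42.6 ± 4.32 CPM (SD, n = 4, adjusted p = 0.00442), and Npas2 from 3.84 ± 0.611 to 13.9 ± 1.93 CPM (SD, n = 4, adjusted p = 0.00672). No clock gene was called for a difference between the skins without the mouse as a block. With it 4 were called, all with a lower step in radiated skin: Cry1, Cry2, Nr1d2 and Hlf (adjusted p = 0.0448, 0.028, 0.0435 and 0.0399). Since the hour of sampling is not in the labels, the week and the hour cannot be told apart for these genes.

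Promoters of clock outputs are known for the E-box CACGTG, bound by the clock activators. It was found in 6.02% of all promoters and in 6 of 19 promoters of listed clock genes (14 of 17 genes matched). Tef has 2 listed starts, and each holds 1 copy. Ciart, a repressor that fell by 2.27 on the log2 scale (adjusted p = 0.0196) and was chosen after its values were seen, holds 3 copies. The 250 bases before the start are given on the strand of the gene, with the E-boxes in capitals.

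Tef, chr15:81811164-81811413: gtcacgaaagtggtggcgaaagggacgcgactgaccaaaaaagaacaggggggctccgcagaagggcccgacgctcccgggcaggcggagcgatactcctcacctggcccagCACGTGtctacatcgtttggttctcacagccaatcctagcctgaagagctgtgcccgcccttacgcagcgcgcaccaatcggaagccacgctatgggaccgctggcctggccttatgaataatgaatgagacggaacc

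Ciart, chr3:95882229-95882478, minus strand: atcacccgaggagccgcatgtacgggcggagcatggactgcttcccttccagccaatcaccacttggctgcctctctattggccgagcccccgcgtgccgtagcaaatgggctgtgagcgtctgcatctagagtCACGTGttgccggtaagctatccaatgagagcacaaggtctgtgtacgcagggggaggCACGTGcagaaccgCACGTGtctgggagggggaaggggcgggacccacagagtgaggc

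The copy in Tef begins 138 bases and those in Ciart 116, 58 and 44 bases before the start. Levels of Ciart were 7.92, 15.4, 11 and 5.18 CPM in week 2 and 1.92, 1.63, 1.14 and 3.36 CPM in week 3.

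Control skin was compared between the same weeks, with no library in common. Of 17351 genes 30 were called (0.173%), 14 higher and 16 lower. The count was 71 without replicate 1 of control week 2, 99 without replicate 1 of control week 3, and between 6 and 8 without any other control library. The genes with the smallest p were Mylk4, which fell by 2.19 (adjusted p = 0.00243), Tef, and Per3, another clock repressor, which fell by 1.64 on the log2 scale (adjusted p = 0.00844). Upward they were Plekho2, an adaptor protein, which rose by 1.36 (adjusted p = 0.00502), Npas2, and Lyve1, a hyaluronan receptor of lymphatic vessels and tissue macrophages, which rose by 2.17 (adjusted p = 0.0282). In radiated skin Lyve1 had 97.3, 44.4, 47.3 and 51.5 CPM and then 96.5, 66.1, 67.8 and 31.8 CPM (0.16, adjusted p = 0.811). The 16 genes called in both steps include Mylk4, Tef, Per3, Npas2 and Thrsp. Genes that rose in radiated skin had a median of 0.16 in control skin (581 tested there), and those that fell had one of -0.13 (851 tested).

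**Figure D5:**
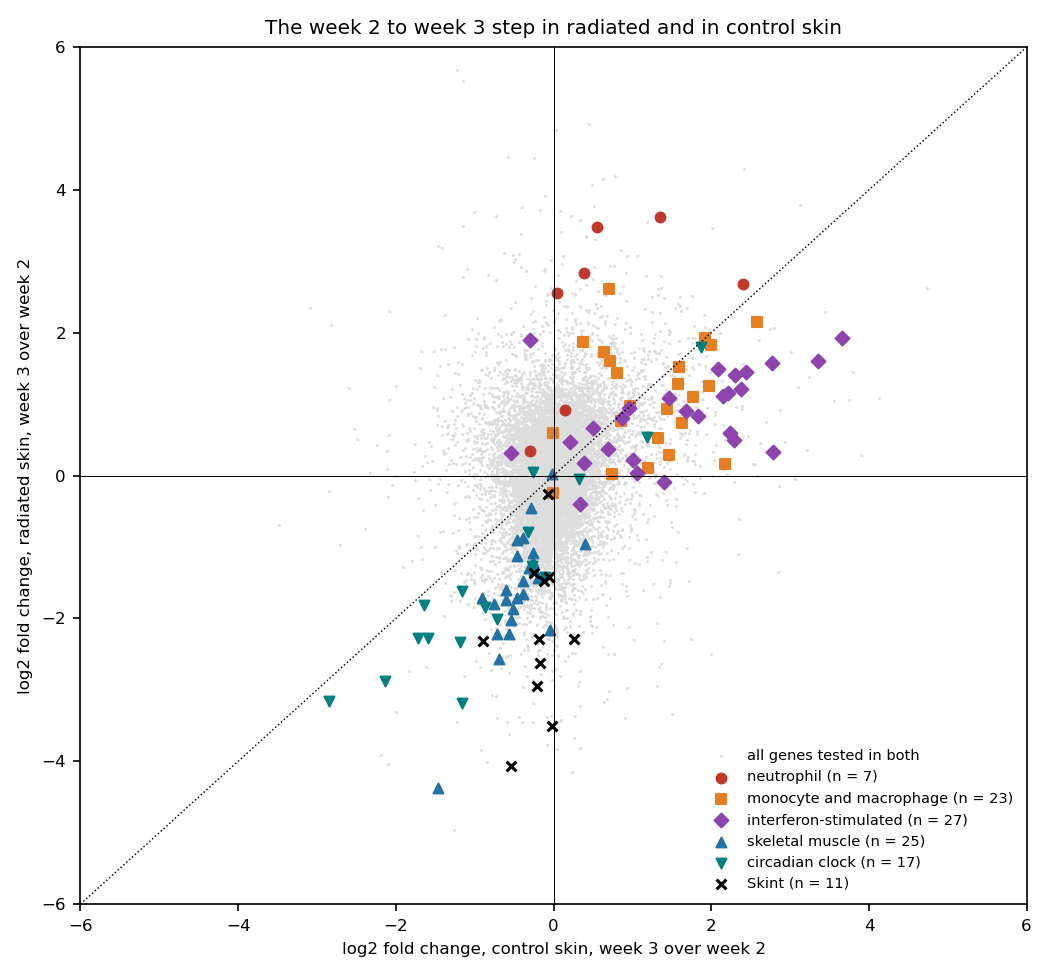
Each point is a gene tested in both skins, with the log2 fold change of week 3 over week 2 in control skin on the x axis and in radiated skin on the y axis; coloured marks are members of 6 lists and the dotted line is equality. The medians in control and in radiated skin were 1.33 and 1.25 for macrophage genes, -0.86 and -1.82 for clock genes, -0.46 and -1.60 for muscle genes and -0.17 and -2.29 for Skint genes.

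The difference between both steps was tested in one model over 16 libraries. It was called for 252 of 18412 genes (1.37%). The step was higher in radiated than in control skin for 70 (0.38%) and lower for 182 (0.988%). These signs describe the step and not the level in either skin. Scaled to total counts, the split was 91 higher and 80 lower, so that 53.2% of called genes were higher against 27.8% under TMM. With the mouse as a block the count was 522 (2.84%), of which 210 were among the 252. Of the genes named below as called, Cxcl12, Dpt, Mylk4 and Hoxb9 were not called with the block (adjusted p = 0.0768, 0.0516, 0.0567 and 0.0529). Of the 252, 222 were also called in radiated skin alone. Upward the smallest p belonged to Agap2, a GTPase-activating protein, with a difference of 2.35 on the log2 scale, Saa3 with 4.45, Dnajb13, a sperm tail and cilium protein, with 1.93, and Ccn4 with 2.81 (each with adjusted p = 0.0193). Agap2 stood at 4.25, 3.74, 4.65 and 5.18 CPM in radiated week 2 and at 14.7, 17.4, 22.2 and 13.2 CPM in radiated week 3, while control skin had 4.53 ± 1.19 and 3.38 ± 0.709 CPM (SD, n = 4). Radiated week 3 alone stood out. Downward they were Pard3b, a cell polarity protein, with -1.49, Nectin3, an adhesion protein, with -2.27, Otud1 with -3.31 and Emx2, a homeobox factor, with -1.99 (each with adjusted p = 0.0193). Under the alternatives the step in radiated skin alone lay at 0.71 to 1.04 for Dnajb13 and at -1.18 to -0.72 for Emx2. The rest of both differences came from control skin. Nectin3 stood at 89.8, 128, 138 and 73.3 CPM and then at 19.4, 26, 13.5 and 18.3 CPM in radiated skin, against 133 ± 32.9 and 116 ± 24 CPM (SD, n = 4) in control skin. Otud1 in control skin was 96.5 ± 40.5 and 90.5 ± 18.8 CPM (SD, n = 4), so radiated skin was above it in 3 of 4 libraries of week 2 and below it in all of week 3. Without replicate 4 of control week 2 no gene was called for this difference by edgeR (3120 had an unadjusted p under 0.05). The count lay between 47 and 128 without replicate 2 or 3 of radiated week 2, replicate 1 or 3 of radiated week 3, replicate 1 or 3 of control week 2, or any library of control week 3. It was 591 without replicate 4 of radiated week 2 and 726 without replicate 4 of radiated week 3.

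By group, the difference was called, with the step higher in radiated than in control skin, for 4 of 30 matricellular and myofibroblast genes and with it lower for 2. Of 17 dermal fibroblast genes it was higher for 1, Cxcl12, and lower for 4, Dpt, Cd34 and Gsn among them, and of 22 follicle stem cell and dermal papilla genes it was lower for 3, which are Cd34, Sox9 and Bmp6. It reached 3 of the chemokines (Cxcl3, Cxcl5 and Cxcl12), 2 of the neutrophil genes (Trem1 at 5.01, adjusted p = 0.049, and Hdc at 2.90, adjusted p = 0.0198) and none of the macrophage genes. None of the 25 muscle, 21 fat, 17 clock and 11 Skint genes on these lists was called for it, but Mylk4 (-1.74) and Tmem233 (-3.07), described with the muscle genes, were, and of 38 cell division genes 1 was, Mcm3 (1.81, adjusted p = 0.0306). With the mouse as a block the counts were 1 muscle gene (Myh1, adjusted p = 0.0286), 1 fat gene (Acsl1, adjusted p = 0.046), 4 clock genes, none of the Skint and macrophage genes, 3 cell division genes, 4 neutrophil genes and 2 of the dermal fibroblast genes. It also took in Inhba (4.13, adjusted p = 0.0284), Mmp9 (3.60, adjusted p = 0.0304), Apln (3.47, adjusted p = 0.0351) and Slc7a11 (3.20, adjusted p = 0.0293). The step was lower in radiated than in control skin for Klf4 (-1.84, adjusted p = 0.0418), Krt80 (-1.86, adjusted p = 0.036), Sox9 (-1.68, adjusted p = 0.0322), Cd34 (-1.84, adjusted p = 0.0332), Cdh19 (-2.18, adjusted p = 0.0193) and Cd55, a shield against complement (-1.98, adjusted p = 0.0193). For Acod1 (6.06, adjusted p = 0.067), Cxcl2 (5.73, adjusted p = 0.0884), Mstn (-2.93, adjusted p = 0.0675) and Cd207 (-2.33, adjusted p = 0.0907) the difference was large and not called. Hoxb9, a gene whose level marks position along the trunk, had 8.76 to 17.3 CPM in radiated week 2, 6.45 to 10.8 CPM in radiated week 3, and 2.43 ± 0.357 and 7.27 ± 3.87 CPM (SD, n = 4) in control skin of weeks 2 and 3. Its difference was -2.39 (adjusted p = 0.0304), and its part in the other differences between the skins was not tested.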

How the data were processed

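Whole-skin RNA of 35 libraries was sequenced. Reads were processed with Trim Galore 0.6.7 and kallisto 0.46.2 against mm10, per the submitters' processing notes, and the authors deposited estimated counts per gene (not whole in 30.1% to 32.1% of values of the 8 libraries used). These were rounded here. How transcripts were summed to genes is not given in the sources used here. Genes were filtered with filterByExpr, scaled with TMM factors and tested with the quasi-likelihood F test of edgeR 4.0.16 in R 4.3.3, with Benjamini-Hochberg adjustment over all tested genes. Only the groups compared entered each fit, and no covariate was used. SEs were derived from the F statistic. Levels are CPM with TMM factors over the 19813 genes kept in all libraries, and list levels are means of log2(CPM + 0.5) over members with a mean of at least 0.1 CPM. Coordinates are those of GENCODE M21 on GRCm38 (mm10), where 35945 of 36106 identifiers matched.

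The members of the 38 gene lists (761 of 763 symbols measured), the rule for naming genes and the comparison itself were chosen with earlier results of these data known. Named genes are the 12 largest increases and decreases among called genes with at least 5 CPM and no overlap, the 4 smallest p per direction of the difference of the steps, the 3 per direction in control skin, up to 5 of each list with the smallest p, cell type markers and a few listed genes; some genes this rule names are not reported here. Promoters are the 250 bases before RefSeq starts on GRCm38.p6. Within groups, 24 library pairs were compared, and none agreed within sampling noise (reduced chi-square at least 29.6). Deviations of radiated and control libraries with the same week and number correlated at 0.155 to 0.294 in week 2 and at -0.085 to 0.172 in week 3. P-values measure the spread between these samples. A count of 3 was taken as the floor, and floors cover counting error only. The test was checked on simulated counts with 200 changed genes among 17676: it found 72% of 4-fold and 7% of 2-fold changes. With 83 calls there against 1487 in the data, the cut-off after adjustment was stricter in the simulation. Alternatives were DESeq2 1.42.0, limma-voom (limma 3.58.1), other scalings and filters, 1 fit over all libraries, a replicate block and leaving out each library.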

Additional observations from a re-analysis of the deposited data

Results flagged for a closer look

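In groups of 4 libraries, a library was marked where its gap to the nearest other library passed the usual critical share of the group's whole range (Dixon's test). This was so in 37 of 418 groups of the named genes and lists, and chance marks about 1 in 20 groups. In week 2, replicate 4 stood above the others for Krt16 (5165 CPM), Krt6a (4383 CPM), Krt6b (3022 CPM), Tnc (536 CPM), S100a9 (16 CPM) and Mmp13 (2.12 CPM). The same library stood below them for Acta1 (773 CPM), Pard3b (39.8 CPM), Adipoq (35.2 CPM) and the mean log2 level of the fat list (5.56). Replicate 1 of week 2 was above the others for C1qa (243 CPM), Csf1r (193 CPM), Lyve1 (97.3 CPM), Adgre1 (97.1 CPM) and Pecam1 (85.6 CPM). Replicate 3 of week 2 was above them for Fosb (2380.3 CPM), Trp53inp1 (604 CPM), Skint3 (195 CPM), Cxcl2 (7.4 CPM), Mmp9 (5.78 CPM) and Retnlg (1.17 CPM). Replicate 2 of week 2 was above them for Krt71 (3.68 CPM) and below them for the mean log2 level of cell division genes (3.19). In week 3, replicate 1 stood above the others for S100a9 (220 CPM), S100a8 (99.5 CPM), Retnlg (79 CPM), Adam12 (71.4 CPM), Bnip3 (45.1 CPM), Cd177 (44.9 CPM) and Ly6g (8.32 CPM), and below them for Mpo (1.1 CPM). Replicate 4 of week 3 did so for Krt71 (196 CPM), Padi3 (10.9 CPM), Cyp2e1 (4.74 CPM) and the hair follicle keratin list (3.56, mean log2). Replicate 2 of week 3 did so for Fosb (179 CPM) and, downward, for S100b (1.45 CPM).

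The step from week 2 to week 3 differed between radiated and control skin for 252 genes by the edgeR test of the difference itself. Of the genes named here, Spp1, Slc16a3, Slc2a1, Cxcl12, Mylk4, Hoxb9, S100b and Dpt were not called for it with the mouse as a block (adjusted p = 0.0516 to 0.0768). Among the named genes the difference (radiated minus control, log2) was positive for Lcn2 (6.85), Trem1 (5.01), Cxcl3 (4.78), Cxcl5 (4.67), Saa3 (4.45), Inhba (4.13), Mmp9 (3.6), Apln (3.47), Spp1 (3.4) and Slc7a11 (3.2). It was smaller and positive for Hdc (2.9), Col12a1 (2.82), Ccn4 (2.81), Adam12 (2.53), Agap2 (2.35), Slc16a3 (2.31), Dnajb13 (1.93), Mcm3 (1.81), Cxcl12 (1.71) and Slc2a1 (1.16). It was negative for Myoc (-3.7), Dapl1 (-3.64), Otud1 (-3.31), Tmem233 (-3.07), Hoxb9 (-2.39), Timp3 (-2.28), Nectin3 (-2.27), Cdh19 (-2.18), Emx2 (-1.99), Cd55 (-1.98) and Krt80 (-1.86). Further negative differences were those of Klf4 (-1.84), Cd34 (-1.84), Mylk4 (-1.74), S100b (-1.74), Bmp6 (-1.71), Sox9 (-1.68), Dpt (-1.6), Gstm1 (-1.56), Pard3b (-1.49) and Gsn (-1.46).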

How the results depend on the processing

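In radiated skin the count of called genes was 1487, and 3190 with DESeq2 and 4754 in 1 fit over all libraries. It stayed within 1.5 times with DESeq2 size factors (1506), total counts (1731), no filter (1410), a stricter filter (1384) and limma-voom (1571), and lay between 134 and 1833 with 1 library left out. In control skin it was 30, and 47 without the filter, 483 with DESeq2, 14 with limma-voom, 94 in 1 fit over all libraries, and 6 to 99 with 1 library left out. For the difference of the steps it was 252, and 1143 with DESeq2, 1322 in 1 fit over all libraries, and 0 to 726 with 1 library left out.

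The replicate numbers pair mice in no stated way across weeks. With the number as a replicate block, 1736 genes were called in radiated skin and 0 in control skin by edgeR (1705 at an unadjusted p under 0.05). Of those 1736, 1214 were among the 1487 called without it. Of 118 named genes called in radiated skin, 14 were not called with this block, Epgn among them (adjusted p = 0.109 by edgeR). Deviations of same-numbered radiated libraries of weeks 2 and 3 correlated at 0.09 to 0.311, and each of the 4 correlated best with its own number, a hint from the data and not from the design. In the difference of the steps a number was taken to mark 1 mouse within a week, and the block gave 522 calls. By the same deviations, radiated libraries correlated best with the control library of their own number in 4 cases in week 2 and in 1 in week 3.

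Among named genes called in radiated skin none changed sign, but calls were lost for 10 with total counts, 9 with limma-voom (Cd177 at an adjusted p of 0.13 and Cxcl3 at 0.0563) and 3 in 1 fit over all libraries (Mki67 at 0.104, Padi3 at 0.156 and Lep at 0.0633). Among those not called, the sign turned for Krt1 with limma-voom (-0.82), with the replicate block (-0.36) and without replicate 4 of week 3 (-0.51). It turned for Awat2 (0.02) and Cd3g (0.16) with total counts. With 1 library left out it ranged from -0.55 to 7.44 for Krt71, -0.43 to 0.50 for Sox10, -0.10 to 0.47 for Lyve1, -0.11 to 0.17 for Prox1, -0.33 to 0.024 for Awat2, -0.66 to 0.057 for Cd3e and -0.18 to 0.15 for Cd3g. The cause was not tested. In simulated counts with the spread of the radiated libraries, 7% of 2-fold changes were found, against 50% with that of the control libraries, and genes near the floor of 3 counts are imprecise.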

Other observations

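In the complement list 1 of 19 tested genes rose and 2 fell, with a median of 0.44, and none was called without replicate 2 of week 2. None rose without replicate 3 or 4 of week 2 or replicate 1, 2 or 3 of week 3, 4 rose without replicate 1 of week 2, and 3 rose without replicate 4 of week 3. Cd55 and Cd59a, which shield cells from complement, fell by 1.62 (adjusted p = 0.0154) and 1.02 on the log2 scale (adjusted p = 0.0353), and C5ar1, the receptor of the complement fragment C5a, rose by 1.92 (adjusted p = 0.0312 with edgeR). C5ar1 also rose in control skin, by 1.76 (adjusted p = 0.041). In the list of basement membrane and migration genes 3 of 24 rose and 2 fell, again with no call without that library. The count was 2 up without replicate 3 of week 2 and 1 up without replicate 1, 2 or 3 of week 3, with none down in each of these. Col17a1, the collagen of hemidesmosomes, stood at 1449, 2403, 2362 and 1678 CPM and then at 480, 1101, 915 and 812 CPM (log2 fold change -1.23, adjusted p = 0.0344), and Dst (dystonin), its linker to keratin filaments, fell by 0.94 (adjusted p = 0.0319). Both were lower in every library of week 3. Plaur, the urokinase receptor of migrating cells, rose by 2.53 (adjusted p = 0.032). None of the tested genes of the melanocyte (10), red blood cell (5) and B and plasma cell (4) lists was called.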
